A study of Mus musculus with 27 samples.

Results

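Among 27 whole livers, 5 carried bile duct transcripts well above those of the mice treated alongside them. Scar transcripts were also higher on average, but in some of the 5 livers part of them overlapped the groupmates. These 5 livers are described here against their 10 groupmates. The livers were selected on their high levels of bile duct genes together with *Gpnmb*, *Spp1*, *Krt19* and *Timp1*, and were those of mouse 7 of the WT WDA females, mouse 17 of the KO WDA males, mouse 13 of the WT Res females, mouse 5 of the KO Res males and mouse 9 of the WT Res males. Each of these groups held 3 mice, so each chosen liver had 2 groupmates, and the other 12 livers of the series came from 4 groups without such a liver. WDA stands for a Western diet given together with alcohol as the drink, and Res for resolution, a period after WDA had been stopped.

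All 27 mice carried floxed alleles of *Kdm5b* (*Kdm5b* fl/fl), a gene for a demethylase of lysine 4 of histone H3, and every mouse had received WDA and an AAV8 vector. WT mice received a control vector, KO mice AAV8-CMV-Cre, which reaches the liver without being limited to 1 cell type, and HepKO females AAV8-TBG-Cre, whose promoter is active in hepatocytes. WDA mice are labelled with 8 weeks of WDA and the vector, and Res mice with 16 weeks of WDA, the vector and 4 weeks of resolution. The methods describe a longer WDA feeding than the label of the WDA mice, and the labels are followed here. The sample titles of the WDA mice carry 1 prefix number and those of the Res mice another. The labels do not say what the number stands for, and stage cannot be told apart from it. Per the methods, mice taken to resolution had a surgical biopsy of the liver beforehand. There were no mice without WDA among the samples.

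Bile ducts are lined by cholangiocytes, which carry keratins 7 and 19 and the adhesion molecule Epcam. In chronic liver injury, duct-like cells multiply at the portal tracts in what is called a ductular reaction, and this commonly accompanies scarring, in which stellate cells turn into matrix-producing myofibroblasts. Macrophages that carry Gpnmb, Trem2, Cd9 and Spp1 gather at such scars, while the liver's resident macrophages, the Kupffer cells, carry Clec4f, Timd4 and Cd163. RNA was taken from whole liver, so a change in the number of cells of a type and a change in RNA per cell cannot be told apart.

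Counts of reads per gene summed to between 14634602 and 18122258 in the 5 chosen livers and to between 16954354 and 19388251 in their groupmates. The chosen livers had 12978 to 13459 genes with at least 10 counts, more than any groupmate (12145 to 12612) or any liver of the other groups (12101 to 12529). Values below are counts scaled to the library total as CPM, after TMM scaling, a correction for a few abundant genes taking a larger share of the reads. The scaling factors also separated the livers, at 1.09 to 1.37 in the chosen livers and 0.856 to 1.07 in the groupmates.

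The KO minus WT difference of *Kdm5b*, the targeted gene, was -0.45 on the log2 scale (SE 0.10) over the 24 livers without HepKO. It did not pass the edgeR test after adjustment over all 13186 genes fitted (adjusted p = 0.235). Without the 5 chosen livers the difference was -0.46 (SE 0.11, edgeR adjusted p = 0.139). Among the chosen livers *Kdm5b* was above both groupmates in 4 of 5 groups. It stood at 31 CPM in mouse 7 of the WT WDA females (groupmates 21.5 and 25.1), 21.8 in mouse 17 of the KO WDA males (21.7 and 20.3), 17.5 in mouse 13 of the WT Res females (16.6 and 17.8), 17.4 in mouse 5 of the KO Res males (7.89 and 12.9) and 19.6 in mouse 9 of the WT Res males (18.8 and 19.3). The KO WDA males thus stood close to the WT WDA males (23.7 to 24.6 CPM), and mouse 5 above both of its groupmates. Counts were summed over the whole gene, so exons outside the floxed part also count and the check of the deletion is a weak one.

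A pair of the chosen libraries stood apart in a further way. Mouse 13 of the WT Res females held transcripts of pancreatic acinar cells: the 9 listed acinar genes summed to 287 CPM there and to no more than 5.84 CPM in any other library. Amylase *Amy2a5* was at 138 CPM in mouse 13 and the protease precursor *Prss2* at 15.4 CPM, against 0 to 0.122 CPM for *Prss2* in the other 26 libraries. Mouse 5 of the KO Res males held transcripts typical of female liver. The steroid-metabolizing P450 *Cyp2b9* was at 133 CPM against 9.16 and 7.63 CPM in its groupmates and 364 to 445 CPM in the KO Res females, and the sulfotransferase *Sult2a1* was at 132 CPM against 1.21 and 2.12 CPM. The 4 Y-linked genes *Ddx3y*, *Eif2s3y*, *Kdm5d* and *Uty* summed to 88.9 CPM in mouse 5, the lowest among the males, which otherwise ranged from 99 to 158 CPM, and to no more than 2.15 CPM in females. The part of either in the results was not tested, and list medians without their groups are given below.

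The marker transcripts themselves are given first as a description, since they chose the livers. *Krt19*, a keratin of bile duct cells, stood at 6.39 CPM in mouse 7 of the WT WDA females against 0.417 and 0.278 CPM in its groupmates. It was at 6.99 CPM in mouse 17 of the KO WDA males (0.407 and 1.62), 4.72 in mouse 13 of the WT Res females (0.733 and 0.442), 3.58 in mouse 5 of the KO Res males (0.482 and 0.459) and 2.74 in mouse 9 of the WT Res males (0.19 and 0.534). No groupmate and no liver of the other 4 groups (0 to 1.44 CPM) reached the lowest chosen liver. The counts behind these values were small, 52 to 167 reads in the chosen livers and 3 to 27 in the groupmates.

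*Spp1*, which encodes osteopontin, a secreted protein of bile duct cells and scar macrophages, was the most abundant of the 4 markers. It was at 417 CPM in mouse 7 of the WT WDA females (12.3 and 17.7 in groupmates), 474 in mouse 17 of the KO WDA males (20.2 and 92.6), 204 in mouse 13 of the WT Res females (28.1 and 26.5), 171 in mouse 5 of the KO Res males (25 and 27.8) and 128 in mouse 9 of the WT Res males (18.6 and 21.2). Mouse 18, a groupmate of mouse 17, had the highest level outside the chosen livers, and no library outside them overlapped their range.

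*Gpnmb*, a glycoprotein of lipid-laden and scar macrophages, separated the livers less cleanly. It was at 251 CPM in mouse 7 of the WT WDA females (2.33 and 2.73 in groupmates), 152 in mouse 17 of the KO WDA males (2.5 and 25.3), 57.7 in mouse 13 of the WT Res females (1.92 and 2.98), 42.5 in mouse 5 of the KO Res males (9.82 and 29.9) and 47.1 in mouse 9 of the WT Res males (53.4 and 14.2). In the WT Res males, groupmate mouse 7 therefore had more *Gpnmb* than the chosen liver of mouse 9.

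*Timp1*, an inhibitor of matrix-degrading metalloproteinases, was low throughout. It reached 3.79 CPM in mouse 7 of the WT WDA females (0.0596 and 0.167 in groupmates) and 4.48 CPM in mouse 17 of the KO WDA males (0.291 and 1.02). In the Res groups it was at 0.614 CPM in mouse 13 (0.113 and 0.11), 1.23 in mouse 5 (0.422 and 0.746) and 0.897 in mouse 9 (0.569 and 0.593). Each chosen liver lay above both of its groupmates, but groupmates 18 of the KO WDA males and 11 of the KO Res males overlapped the chosen Res livers.

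**Figure D1:**
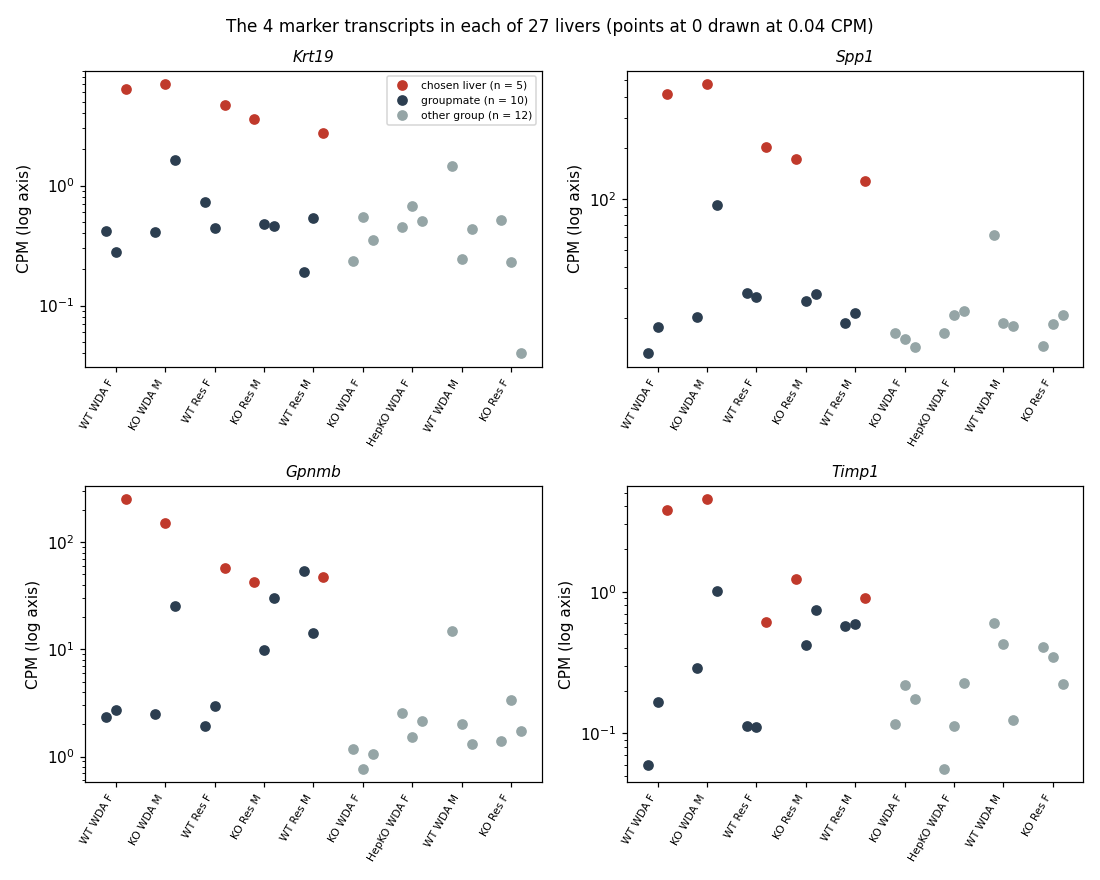
Level of the 4 marker transcripts in each of the 27 livers, in CPM on a log axis, by group, with 1 point per mouse in red for the 5 chosen livers, dark for their 10 groupmates and grey for the 12 livers of the other groups. *Krt19* and *Spp1* do not overlap between red and the rest, whereas *Gpnmb* of a WT Res male groupmate (53.4 CPM) exceeds that of its chosen liver (47.1 CPM).

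The promoters of 3 of the markers and of 2 other genes, *Trem2*, a macrophage receptor for lipids, and *Mmp7*, a metalloproteinase of duct epithelium, are shown because these transcripts were higher on average in the chosen livers. Whether they share a regulator was not tested. Each window holds 250 bases before and 50 from the annotated start, from RefSeq, build GRCm38.p6, all on the plus strand. Capitals mark TGANTCA, a motif bound by AP-1 factors, and GGAATG, a motif bound by TEAD factors. CACGTG, an E-box, was also searched, and all 3 were searched on both strands.
Gpnmb, chr6:49036268-49036567: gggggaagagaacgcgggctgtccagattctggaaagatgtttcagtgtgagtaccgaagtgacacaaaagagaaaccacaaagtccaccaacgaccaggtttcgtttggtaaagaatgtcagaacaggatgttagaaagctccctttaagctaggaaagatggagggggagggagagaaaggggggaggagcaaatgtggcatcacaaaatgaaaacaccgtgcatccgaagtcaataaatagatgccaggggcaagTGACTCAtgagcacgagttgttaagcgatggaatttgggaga
Trem2, chr17:48346151-48346450: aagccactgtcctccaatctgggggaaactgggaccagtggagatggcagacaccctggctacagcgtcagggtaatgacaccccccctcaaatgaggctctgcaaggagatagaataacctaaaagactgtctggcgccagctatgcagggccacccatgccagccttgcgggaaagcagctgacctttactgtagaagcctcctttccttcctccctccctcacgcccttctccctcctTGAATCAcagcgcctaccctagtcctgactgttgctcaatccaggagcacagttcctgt
Mmp7, chr9:7691840-7692139: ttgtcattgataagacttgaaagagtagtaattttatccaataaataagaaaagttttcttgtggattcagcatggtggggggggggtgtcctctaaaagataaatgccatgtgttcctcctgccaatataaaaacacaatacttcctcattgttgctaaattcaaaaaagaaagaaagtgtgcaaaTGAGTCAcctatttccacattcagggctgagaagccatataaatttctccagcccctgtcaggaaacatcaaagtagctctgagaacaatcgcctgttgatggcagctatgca
Timp1, chrX:20869916-20870215: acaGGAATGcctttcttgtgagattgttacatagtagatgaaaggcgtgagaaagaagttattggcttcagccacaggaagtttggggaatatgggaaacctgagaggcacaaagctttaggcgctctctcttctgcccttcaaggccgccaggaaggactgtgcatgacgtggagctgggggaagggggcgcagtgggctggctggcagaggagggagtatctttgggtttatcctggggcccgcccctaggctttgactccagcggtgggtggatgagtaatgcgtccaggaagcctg
Spp1, chr5:104434861-104435160: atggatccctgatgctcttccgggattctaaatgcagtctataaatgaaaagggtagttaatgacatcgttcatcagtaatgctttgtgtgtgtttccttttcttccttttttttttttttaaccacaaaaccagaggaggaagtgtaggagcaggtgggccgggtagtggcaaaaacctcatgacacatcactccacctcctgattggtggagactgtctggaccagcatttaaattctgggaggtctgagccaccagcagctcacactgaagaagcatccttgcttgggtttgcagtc
TGANTCA began 8 bases after the annotated start of *Gpnmb*, 9 bases before that of *Trem2* and 63 bases before that of *Mmp7*. GGAATG lay 247 bases before the start of *Timp1*, and the *Spp1* window held none of the 3. Over all 32851 windows, TGANTCA was in 7.81%, CACGTG in 7.15% and GGAATG in 14.7%. Of the 10 scar macrophage genes with a promoter among these, 6 held TGANTCA in at least 1 window (*Gpnmb*, *Trem2*, *Mmp12*, *Itgax*, *Cd68* and *Ms4a7*), as did 3 of 11 cholangiocyte genes and 1 of 19 matrix genes, against 8.97% of all genes. In *Mmp12* the match lay in a further annotated window, and the window at the gene's own start held none of the 3. These are matches of letters, and binding was not measured.

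Across all genes, an edgeR quasi-likelihood fit of the chosen livers against their groupmates, with group as a covariate, called 5125 of 13425 genes (38.2%) at an adjusted p under 0.05, 2824 higher (21%) and 2301 lower (17.1%). Nothing is read from these counts or from the calls of single genes, because the livers were chosen by transcripts of the same libraries. As a plainer measure, 1598 genes (11.9%) were above both groupmates in all 5 groups and 1471 (11%) were below both. The split by direction depended on the scaling, with 3306 genes higher and 1568 lower after upper quartile scaling, and 6987 higher and 355 lower with library totals alone, which moved the median of all genes from 0 to 0.36 on the log2 scale. Log2 differences below are from the TMM fit, with the standard error (SE) over 15 livers.

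Bile duct genes, which chose the livers, are described next. Of 17 cholangiocyte genes, 16 had enough reads for the fit. All 16 were above both groupmates in all 5 groups, with a median log2 difference of 3.13 and group medians of 2.58 (KO Res males) to 3.86 (WT WDA females). The largest difference was that of the tight junction gene *Cldn4* (4.15, SE 0.41). *Epcam* stood at 19 CPM in mouse 7 of the WT WDA females (1.43 and 0.89 in groupmates) and at 20.8, 12.7, 9.07 and 7.75 CPM in mice 17, 13, 5 and 9. The chloride channel gene *Cftr* was at 0.844 to 2.26 CPM in the chosen livers and 0 to 0.3 CPM in the groupmates. *Sox9*, which marks duct cells and duct-like hepatocytes, was similar in the 5 livers, at 13.1 to 14.5 CPM, whereas its groupmates ranged from 2.15 to 8.44 CPM. Without the WT Res female group, whose mouse 13 held the acinar transcripts, the median was 3.19, and those of the scar macrophage and matrix lists were 1.73 and 1.85. Without the KO Res male group of mouse 5 they were 3.17, 2.06 and 2.08.

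A ductular score, the mean log2 CPM of the 16 genes, was 3.69, 3.47, 2.84, 2.47 and 2.38 in mice 17, 7, 13, 5 and 9. Just outside the chosen livers lay mouse 18 of the KO WDA males at 1.55, mouse 19 of the WT WDA males at 1.27 and mouse 1 of the WT Res females at 0.43. The remaining livers were at 0.35 or below. The score thus left mice 18 and 19 between the chosen livers and the rest.

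Genes that signal to or mark duct-like cells followed. Of 20 ductular signalling genes, 18 were fitted, all 18 were higher on average, and 9 were above both groupmates in all 5 groups, with a median of 1.27. *Ankrd1*, a target of the YAP pathway, differed by 4.01 (SE 0.35), *Wnt7b*, a Wnt ligand of duct cells, by 3.73 (SE 0.63), the adhesion gene *Ncam1* by 3.43 (SE 0.4). *Sox4*, a transcription factor of developing ducts, was at 31 and 23.7 CPM in the WDA mice 7 and 17, at 18.2, 9.69 and 7.81 CPM in the Res mice 13, 5 and 9, and at 1.16 to 6.6 CPM in the groupmates. Among Notch pathway genes, *Notch3* (1.95, SE 0.19) and the ligand *Jag1* (1.21, SE 0.14) were above both groupmates in all 5 groups, while the receptor *Notch1* differed by 0.05 (SE 0.09).

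Among genes outside the lists that chose the livers with a mean log2 CPM of at least 2, the largest difference was that of *Mmp7*. It was at 23.4 CPM in mouse 7 of the WT WDA females (0 and 0.167 in groupmates), 30.2 in mouse 17 of the KO WDA males (0.0582 and 7.68), 16.2 in mouse 13 of the WT Res females (1.35 and 1.1), 17.5 in mouse 5 of the KO Res males (0.181 and 1.95) and 11.2 in mouse 9 of the WT Res males (0.443 and 0.653). The groups did not overlap. *Tff3*, a trefoil peptide of mucous epithelia, had another order among the chosen livers, being highest in the Res males at 46.2 CPM (mouse 9) and 26.6 CPM (mouse 5) and at 4.44, 8.13 and 1.15 CPM in mice 13, 17 and 7. The next largest differences by the same rule were those of *Cyp2a4*, *Gm3776*, *Gsta1*, *Scube1*, *Emp1*, *Svep1*, *Cx3cr1*, *Fam83a*, *Lamc3* and *Sox4*, the largest being 3.53 for *Cyp2a4*. *Cyp2a4*, *Gm3776* and *Gsta1* have near-identical relatives whose reads the counting could have split, so their values are uncertain.

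The scar matrix was higher in all 5 livers, but by amounts that differed between them. Of 27 matrix genes, 26 were higher on average and 19 were above both groupmates in all 5 groups, with a median of 1.89. The group medians were 2.40 in mouse 7 of the WT WDA females, 2.08 in mouse 17 of the KO WDA males and 1.92 in mouse 13 of the WT Res females, and 0.92 and 0.95 in the Res males 5 and 9. Elastin, *Eln*, which gives tissue its recoil, differed by 2.75 (SE 0.3). *Postn*, periostin of activated fibroblasts, was the exception at -0.33 (SE 0.2).

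*Col1a1*, the main chain of fibrillar collagen I, stood at 69.4 CPM in mouse 7 of the WT WDA females (3.28 and 3.95 in groupmates), 77.5 in mouse 17 of the KO WDA males (4.77 and 17.1), 23.1 in mouse 13 of the WT Res females (3.1 and 2.98), 15.6 in mouse 5 of the KO Res males (3.43 and 12.2) and 15.5 in mouse 9 of the WT Res males (7.33 and 8.42). Every chosen liver lay above its own groupmates, but mouse 18 of the KO WDA males exceeded both chosen Res males. *Acta2*, the smooth muscle actin of myofibroblasts, ran the other way among the chosen livers. It was at 9.6, 7.22 and 5.9 CPM in the Res mice 9, 5 and 13 and at 4.61 and 3.66 CPM in the WDA mice 17 and 7, against 0.954 to 2.28 CPM in the groupmates.

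Stellate cell genes split by what they mark. Of 20 listed genes 18 were fitted, 13 were higher, and 7 were above both groupmates in all 5 groups, among them *Acta2* (1.99, SE 0.18), *Cygb*, a globin of stellate cells (1.86, SE 0.15), and the receptors *Pdgfrb* (1.62, SE 0.21) and *Pdgfra* (1.47, SE 0.21). *Reln* (-0.69, SE 0.13) and *Ecm1* (-1.17, SE 0.17), both expressed by quiescent stellate cells, were below both groupmates in all 5 groups, and *Lrat*, which stores retinol in these cells, differed by -0.30 (SE 0.17). The list's median was 0.68, and 1.04 with library totals alone.

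The 12 fitted enzymes and chaperones that process collagen had a median of 0.60, which was 0.97 with library totals alone. *Loxl1* (2.51, SE 0.29) and *Lox* (2.50, SE 0.4) crosslink collagen and elastin and were above both groupmates in all 5 groups, as were the smaller *Loxl3* (0.74, SE 0.19) and the collagen hydroxylase *Plod2* (1.76, SE 0.26). *Loxl2* (1.14, SE 0.24) and *Loxl4* (0.47, SE 0.27) were not above both in every group, and the hydroxylase *Plod1* was below both in all 5 (-0.57, SE 0.13). Of 21 remodelling genes, 19 were higher and 10 were above both groupmates in all 5 groups, with a median of 1.73. They included the collagenase *Mmp2* (2.91, SE 0.29), the plasminogen activator *Plat* (3.17, SE 0.5), the collagen receptor *Mrc2* (2.44, SE 0.26) and the inhibitor *Timp2*, which was at 52.8 to 102 CPM in the chosen livers and 14.3 to 28.3 CPM in the groupmates. *Mrc1*, a macrophage receptor that takes up degraded collagen, was lower (-0.58, SE 0.17) and below both groupmates in 4 of 5 groups.

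Fibrogenic signals were higher for all 18 of 20 listed genes that were fitted, and 10 were above both groupmates in all 5 groups (median 1.25). Integrin *Itgb6*, which activates latent TGF-beta and is expressed by injured duct epithelium, was at 1 to 1.63 CPM in the chosen livers and at 0 to 0.24 CPM in the groupmates. The ligand *Tgfb2* was at 4.05, 4.23, 2.74, 2.53 and 1.42 CPM in mice 7, 17, 13, 5 and 9, against 0.166 to 1.68 CPM in groupmates. *Tgfb1*, the ligand most studied in liver scarring, differed less (0.61, SE 0.18) and was below both groupmates in 1 group.

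**Figure D2:**
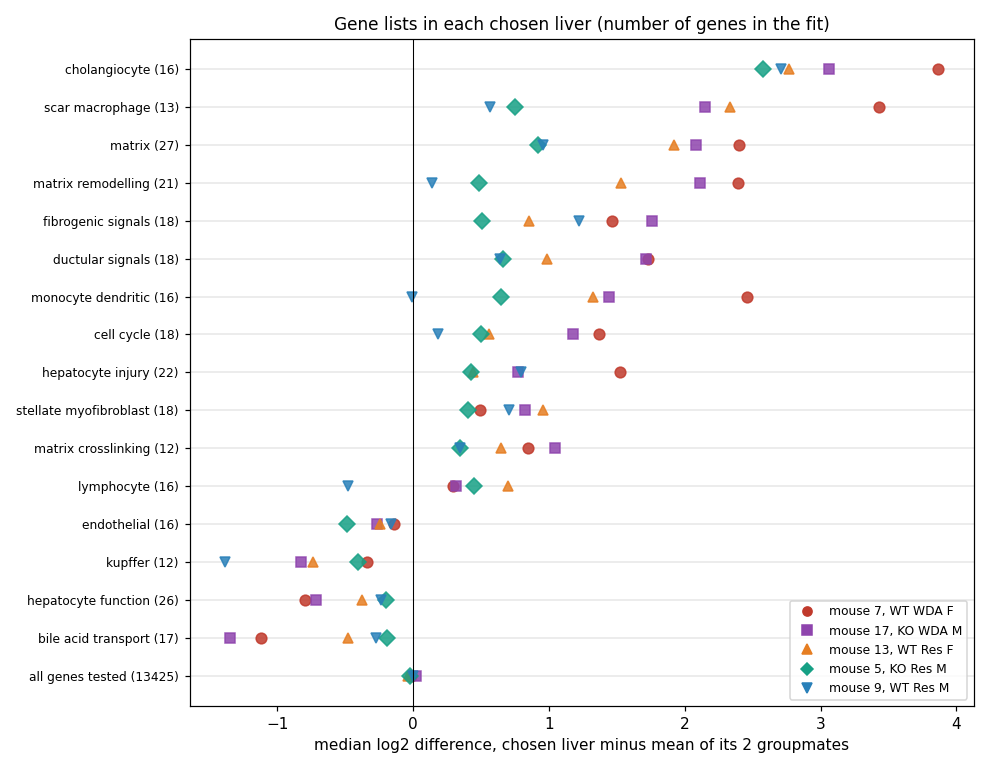
Median log2 difference of each gene list between a chosen liver and the mean of its 2 groupmates, on the x axis, with 1 symbol per chosen liver and the number of genes fitted after each list's name. The cholangiocyte list lies between 2.58 and 3.86 in all 5 livers, whereas the scar macrophage list ranges from 0.57 to 3.43, and the median of all genes stays near 0.

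Scar macrophage genes differed in extent between the chosen livers. All 13 were higher on average with a median of 1.88, but the group median was 3.43 in mouse 7 of the WT WDA females, 2.33 in mouse 13 of the WT Res females, 2.15 in mouse 17 of the KO WDA males, 0.75 in mouse 5 of the KO Res males and 0.57 in mouse 9 of the WT Res males. All 13 lay above both groupmates in each of the first 3 livers, 8 did in mouse 5 and 6 in mouse 9, where 1 and 2 lay below both. The share of all genes above both groupmates in a single liver was not counted, so these counts have no background beside them. *Trem2* was at 27.3 CPM in mouse 7 of the WT WDA females (0.596 and 0.946 in groupmates), 23.9 in mouse 17 of the KO WDA males (0.815 and 4.92), 8.98 in mouse 13 of the WT Res females (1.18 and 0.994), 4.81 in mouse 5 of the KO Res males (1.87 and 4.02) and 5.43 in mouse 9 of the WT Res males (3.98 and 1.9). The elastase *Mmp12* was lower in mouse 9 (11.3 CPM) than in its groupmate mouse 7 (30.4 CPM), and lower in mouse 5 (13.6 CPM) than in its groupmate mouse 11 (23.7 CPM).

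Some groupmates had scar macrophage scores near those of chosen livers. The scar macrophage score, the mean log2 CPM of its 13 genes, was 3.98 in groupmate mouse 7 of the WT Res males and 3.96 in groupmate mouse 11 of the KO Res males, beside 4.11 in chosen mouse 9. The ductular scores of these 3 livers were -0.28, 0.35 and 2.38. The matrix scores were 3.05, 3.61 and 4.19. These values are a description, since both scores hold genes that chose the livers.

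**Figure D3:**
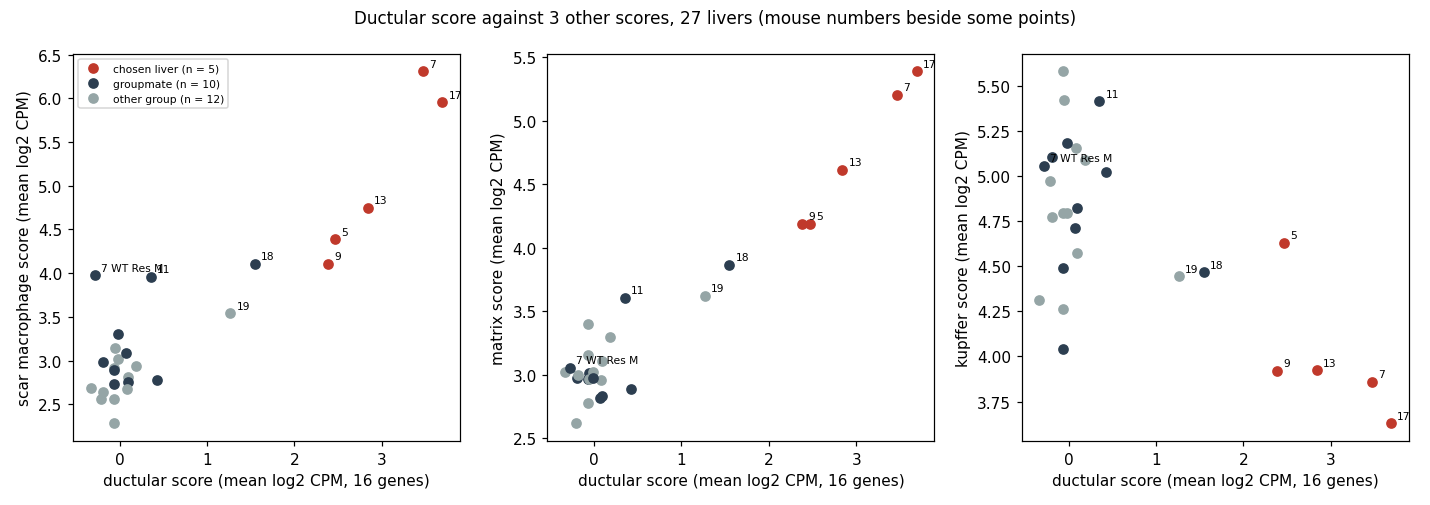
Ductular score (mean log2 CPM of 16 genes) on the x axis against the scar macrophage, matrix and Kupffer cell scores (mean log2 CPM) on the y axes, with 1 point per liver and mouse numbers beside some points. Groupmates 7 of the WT Res males and 11 reach scar macrophage scores of 3.98 and 3.96 at ductular scores of -0.28 and 0.35, and the 5 chosen livers lie at 2.38 or above.

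Most resident macrophage genes were lower on average, while recruited macrophage genes were higher on average. Of 13 Kupffer cell genes 12 were fitted and 10 were lower, with a median of -0.34 that came to 0.02 with library totals alone. The scavenger receptor gene *Cd163* showed it most: it was at 0.97 CPM in mouse 7 of the WT WDA females (8.29 and 18.4 in groupmates), 1.01 in mouse 17 of the KO WDA males (17 and 12.1), 3.4 in mouse 13 of the WT Res females (35.9 and 30.2), 7.84 in mouse 5 of the KO Res males (20.8 and 54.7) and 5.64 in mouse 9 of the WT Res males (26.4 and 34.4). *Clec4f*, a lectin particular to Kupffer cells, was at 24.3 to 47.8 CPM in the chosen livers and 67.6 to 138 CPM in the groupmates, without overlap. *Timd4*, a receptor for dying cells, differed by -2.10 (SE 0.35), and *Marco*, a scavenger receptor, by -0.29 (SE 0.51) with no common direction. Of the 12 fitted genes, 4 were below both groupmates in all 5 groups. In mouse 7 of the WT WDA females, 5 of 13 Kupffer cell genes lay above both groupmates and 7 below both.

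All 16 monocyte and dendritic cell genes were higher on average (median 1.27), but only 3 were above both groupmates in all 5 groups. *Cx3cr1*, the fractalkine receptor of monocytes and monocyte-derived macrophages, was at 18.5, 26.6, 9.64, 9.5 and 8.18 CPM in mice 7, 17, 13, 5 and 9, against 0.556 to 4.5 CPM in groupmates. *Ccr2*, the receptor that draws monocytes into tissue, was at 13.7 and 14 CPM in the WDA mice 7 and 17, but at 3.59 CPM in mouse 9 against 6.32 and 3.56 CPM in its groupmates. The list's group median was 2.46 in mouse 7 of the WT WDA females and -0.01 in mouse 9. Of 16 lymphocyte genes 11 were higher (median 0.41), the largest difference being that of *Jchain* of plasma cells (1.81, SE 0.37).

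The chosen livers had lower levels of many hepatocyte transcripts. Of 26 hepatocyte genes, 21 were lower and 10 were below both groupmates in all 5 groups, with a median of -0.40, which was -0.05 with library totals alone. The 4 largest differences were those of genes expressed around the central vein: *Cyp2e1* (-1.66, SE 0.35), the P450 that oxidizes ethanol, *Cyp2c29* (-1.55, SE 0.32), *Cyp1a2* (-1.51, SE 0.31) and *Glul* (-1.48, SE 0.28), glutamine synthetase. Genes of the periportal zone differed less and not in 1 direction: serine dehydratase *Sds* (0.68, SE 0.28), glutaminase *Gls2* (0.34, SE 0.16), *Ass1* of the urea cycle (0.22, SE 0.19), histidase *Hal* (0.07, SE 0.15), *Cyp2f2* (-0.04, SE 0.19), and *Arg1* (-0.20, SE 0.14), *Cps1* (-0.21, SE 0.16) and *Otc* (-0.43, SE 0.16) of the urea cycle. The gluconeogenic genes *Pck1* (-0.28, SE 0.19) and *G6pc* (-0.46, SE 0.30) had no common direction. No list of zones was tested.

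*Cyp2e1* was at 748 CPM in mouse 7 of the WT WDA females (8435 and 8061 in groupmates), 1661 in mouse 17 of the KO WDA males (8572 and 11249), 3145 in mouse 13 of the WT Res females (8357 and 9540), 7043 in mouse 5 of the KO Res males (10080 and 9114) and 4817 in mouse 9 of the WT Res males (9497 and 9587). The chosen livers did not overlap the groupmates. *Alb*, albumin, differed far less (-0.29, SE 0.18), and in mouse 17 it lay between its groupmates, at 61484 CPM against 54149 and 62537 CPM. *Hnf4a*, the transcription factor that maintains hepatocyte identity, was below both groupmates in all 5 groups (-0.41, SE 0.11). With library totals alone the median of all genes was 0.36, so differences as small as those of *Alb* and *Hnf4a* depend on the scaling.

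Bile acid handling was lower as well. Of 18 listed genes 17 were fitted, 13 were lower and 9 were below both groupmates in all 5 groups, with a median of -0.60, which was -0.26 with library totals alone. The uptake transporters *Slco1a1* (-2.74, SE 0.45) and *Slco1b2* (-1.52, SE 0.27) and the synthesis enzyme *Cyp8b1* (-1.80, SE 0.28) differed most. *Slc10a1*, the sodium-dependent bile acid importer, was at 248 and 331 CPM in the WDA mice 7 and 17 (1040 to 1156 CPM in their groupmates), while mouse 5 of the KO Res males, at 595 CPM, lay between 830 and 507 CPM. The efflux pump *Abcb1a* was above both groupmates in all 5 groups (1.46, SE 0.18), and *Cyp7a1*, the first enzyme of the classic synthesis route, had no common direction (-0.78, SE 0.35).

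Endothelial genes also split. *Cd34*, which sinusoidal endothelium gains in scarred liver and other vessels carry, was higher (2.81, SE 0.28), as was *Vwf* of larger vessels (0.91, SE 0.16). Of the 16 genes 7 were below both groupmates in all 5 groups, among them genes of the sinusoidal endothelium: *Ehd3* (-1.04, SE 0.12), the lectin *Clec4g* (-1.02, SE 0.1), the hyaluronan receptor *Stab2* (-0.64, SE 0.12) and *Plvap* (-0.62, SE 0.1). The sinusoidal genes *Lyve1* (0.24, SE 0.27) and *Stab1* (0.03, SE 0.11) were not. The list's median was -0.18 and became 0.18 with library totals alone, so its direction depended on the scaling, and the common direction of the named genes is relative to the median of all genes.

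Major urinary proteins, hepatocyte-secreted pheromone carriers that males make in larger amounts, gave 9 of the 12 largest negative differences by the rule used for *Mmp7*, the others being *Cd163*, *Slco1a1* and the fatty acid elongase *Elovl3*. All Mup genes together summed to 5829 CPM in mouse 17 of the KO WDA males (125420 and 138660 in groupmates), 55633 in mouse 5 of the KO Res males (159860 and 112250) and 41535 in mouse 9 of the WT Res males (157870 and 110400). In the females they summed to 704 CPM in mouse 7 (14323 and 12759) and 2647 CPM in mouse 13 (13519 and 12649). The summed values are given because the Mup genes are near-identical copies among which reads can be split.

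To set this beside sex-biased genes more widely, 40 male-biased and 29 female-biased autosomal genes were taken from the 12 livers of the other groups, after the data had been seen, as those at least 4-fold apart without overlap between 3 males and 9 females. All 3 males were WT and all 9 females were KO or HepKO, so sex cannot be told apart from genotype in this choice. The names male-biased and female-biased are used with that limit. Of the 40 male-biased genes 16 were Mup genes, so the other 24 are given separately. Over all 40, the median log2 difference was -3.35 in mouse 17, -1.08 in mouse 5 and -1.08 in mouse 9 among the males, and -2.22 in mouse 7 and -0.42 in mouse 13 among the females. Without the Mup genes the medians were -1.95, -0.50 and -0.45 in the males, and -0.60 and 0.04 in the females. Of these 24 genes, 23, 16 and 20 were below both groupmates in mice 17, 5 and 9, and 1, 3 and 3 above both. In mouse 7 of the WT WDA females 15 were below and 6 above, and in mouse 13 of the WT Res females 8 were below and 10 above, so mouse 13 had lower Mup genes without lower male-biased genes otherwise. Female-biased genes went in opposite directions: their medians were 0.55, 1.08 and 0.66 in the males 17, 5 and 9, and -0.14 and -0.69 in the females 7 and 13. Above both groupmates lay 17, 25 and 20 of 29 in the males, with 5, 0 and 5 below both. In the females 13 and 18 of 29 lay below both, with 9 and 2 above both. The share of all genes beyond both groupmates in a single liver was not counted, so the counts of male-biased and female-biased genes have no background beside them. For mouse 5 this goes with the other female-type transcripts described above. The median of 10 listed female-biased genes in the fit was 0.81, and -0.62 without mouse 5.

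**Figure D4:**
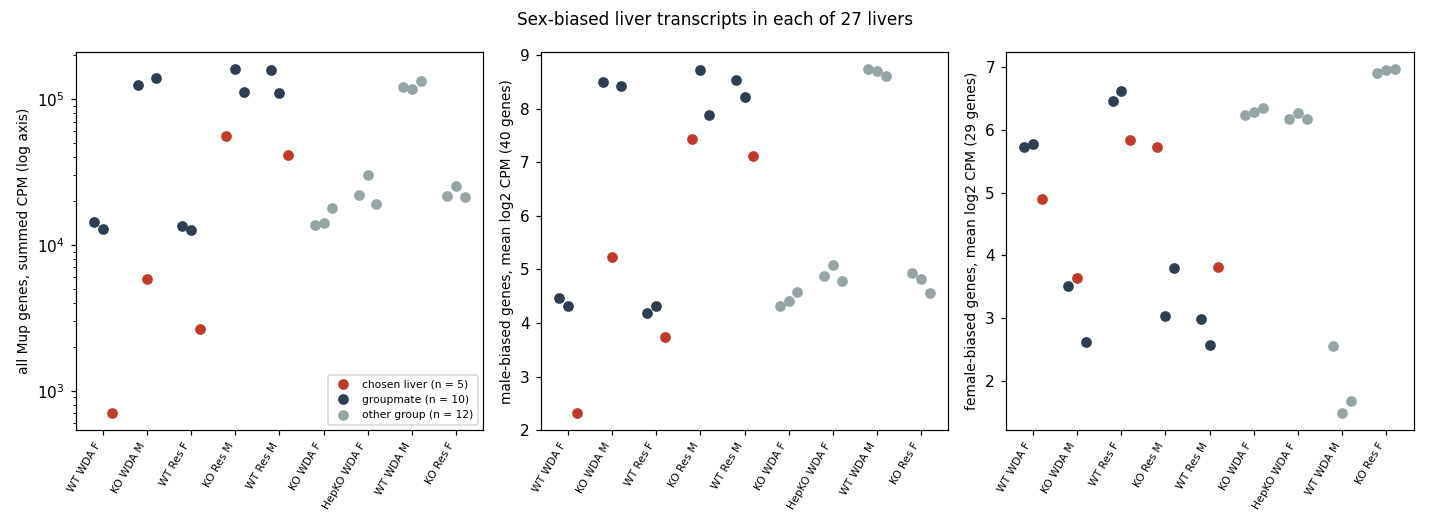
Summed CPM of all Mup genes on a log axis (left), and mean log2 CPM of 40 male-biased (middle) and 29 female-biased genes (right), in each of the 27 livers by group, with 1 point per mouse. The chosen livers (red) lie below their groupmates for Mup genes in all 5 groups, and above them for female-biased genes in the 3 male groups only. Both sets were taken from WT males and KO or HepKO females, so sex and genotype coincide in them.

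Proliferation genes were mainly a feature of the WDA pair. Of 19 listed genes 18 were fitted, 16 were higher (median 0.93), and only *Ccnd1* and *Mcm6* were above both groupmates in all 5 groups. *Mki67*, a marker of dividing cells, was at 9.34 CPM in mouse 7 of the WT WDA females (1.25 and 2.34 in groupmates) and 6.91 in mouse 17 of the KO WDA males (2.62 and 2.22). In the Res livers it was at 2.46 CPM in mouse 13 (1.3 and 1.82), 3.95 in mouse 5 (1.02 and 5.39) and 2.69 in mouse 9 (1.77 and 3.44), and mice 5 and 9 lay between their groupmates. Markers of other tissues differed by tissue. The mucins *Muc5b*, *Muc5ac* and *Muc6* of larger ducts and gallbladder stayed under 10 counts in all libraries. Of the 2 fitted genes of the gallbladder and large duct list, *Sox17* was above both groupmates in all 5 groups and *Pigr* below both. *Tff2*, with too few reads for the fit, lay 0.53 to 2.58 log2 units above the mean of groupmates in the chosen livers. Mesothelial *Wt1* (2.62, SE 0.43) and *Gpm6a* (2.26, SE 0.19) were above both groupmates in all 5 groups while *Msln* (0.89, SE 0.57) was not. The 5 fitted erythroid genes had a median of -0.56, which was -0.20 with library totals alone. Among fat cell transcripts, *Plin1*, a lipid droplet protein, had 18 counts in mouse 9 of the WT Res males and 0 in both groupmates, and *Adipoq*, adiponectin, had 8 counts there against 1 and 0. In mouse 13 of the WT Res females all 7 listed fat cell genes were above both groupmates, summing to 21.2 CPM against 5.64 and 4.31 CPM. In the other chosen livers 1 to 4 of the 7 were above both. Their part in the results was not tested.

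Whether scar genes follow bile duct genes was then examined in the 12 livers of the 4 other groups, whose groups hold no chosen liver. They were passed over on the same transcripts, which limits the range of the score. An edgeR quasi-likelihood fit on the ductular score within groups called 33 of 12897 genes (0.256%) after the score's own genes were left out, all 33 rising with the score (0.256%). None fell (0%), where 149 fell at an unadjusted p under 0.05 and DESeq2 called 1. *Spp1* rose by 1.27 log2 units per unit of score (SE 0.12, adjusted p = 0.00133), *Mmp7* by 3.15 (adjusted p = 0.0153) and *Gpnmb* by 2.09 (adjusted p = 0.0294). *Spp1* and *Gpnmb* are among the 33 but helped to choose the livers, so their slopes are a description only. *Spp1* and *Mmp7* are also expressed by duct epithelium, so their rise does not show that scar genes follow. Of 27 matrix genes 24 had a positive slope and 5 were called (*Eln*, *Col1a2*, *Col6a1*, *Col6a2* and *Col6a3*), 2 of 13 scar macrophage genes were called (*Gpnmb* and *Cd63*), and 2 of 18 stellate cell genes (*Cygb* and *Pdgfra*). No Kupffer cell or hepatocyte gene was called.

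These slopes rested on the WT WDA males. Their mouse 19 had a ductular score of 1.27, while mice 20 and 21 were at -0.21 and -0.07, and no other group of the 4 spanned as much. Without mouse 19, 20 or 21 the fit called 1 gene in each case. Without mouse 19 the slope of *Spp1* was 1.36 (SE 0.56, adjusted p = 0.776) and that of *Col1a2* was -0.50 (adjusted p = 0.927). Mouse 19 had 61.7 CPM of *Spp1*, 15 CPM of *Gpnmb* and 14.5 CPM of *Col1a1*, the highest values of the 12. It also held transcripts of mesothelium, the lining of the liver's surface, with 67 counts of *Msln* against 1 and 6 in mice 20 and 21, and 57 counts of *Upk3b* against 1 and 5, and their part in the slopes was not tested.

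The scores were compared in exact two-sided permutation tests within groups, over 5 relations. Over 12 livers the ductular score went with the matrix score at Pearson's r of 0.921 (exact permutation p = 0.137, adjusted p = 0.341) and Spearman's rho of 0.601 (exact permutation p = 0.156, adjusted p = 0.394). For the scar macrophage score r was 0.821 (exact permutation p = 0.326, adjusted p = 0.407) and rho 0.273 (p = 0.549, adjusted p = 0.549), for the stellate cell score r was 0.719 (p = 0.129, adjusted p = 0.341) and rho 0.511 (p = 0.236, adjusted p = 0.394), for the hepatocyte score r was -0.585 (p = 0.303, adjusted p = 0.407) and rho -0.532 (p = 0.208, adjusted p = 0.394), and for the cell cycle score r was 0.158 (p = 0.472) and rho 0.196 (p = 0.536). No relation passed the test. Without the 2 livers farthest from the median score, mice 19 and 20 of the WT WDA males, r was -0.04 for matrix and -0.51 for scar macrophages, so the relations over 12 livers rest on those mice.

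**Figure D5:**
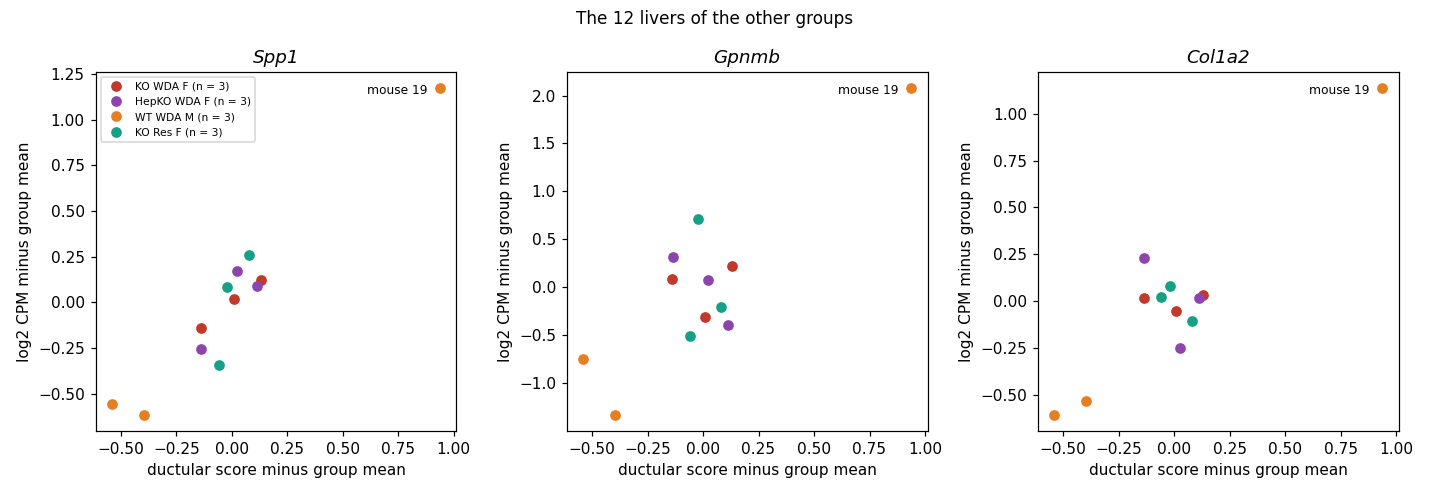
Log2 CPM of *Spp1*, *Gpnmb* and *Col1a2* (y axes) against the ductular score (x axis), each minus its group mean, in the 12 livers of the 4 other groups, with 1 point per mouse coloured by group. Mouse 19 of the WT WDA males stands alone at the upper right, and the 9 livers of the other 3 groups span a narrow range of score.

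The chosen livers were spread over the study's conditions: 3 were WT and 2 KO, 3 male and 2 female, and 3 Res and 2 WDA. The ductular, scar macrophage and matrix scores were tested against genotype, sex and stage over the 24 livers without HepKO, with exact two-sided permutation within strata (160000 regroupings, 9 tests). No test passed, with all 9 adjusted p at 0.962. KO minus WT was -0.20 for the ductular score (exact permutation p = 0.736), -0.07 for scar macrophages (p = 0.893) and 0.02 for matrix (p = 0.962). Male minus female was 0.41, 0.44 and 0.20 (exact permutation p = 0.489, 0.363 and 0.56), and Res minus WDA was -0.04, 0.06 and -0.12 (exact permutation p = 0.941, 0.89 and 0.703). With the 5 chosen livers left out, KO minus WT became 0.08, 0.16 and 0.20, and the male minus female difference in the scar macrophage score was 0.59 (exact permutation p = 0.0153, adjusted p = 0.138). The 5 livers were chosen on high levels of transcripts in the ductular and scar macrophage scores. The values without them are therefore a description, and that p is not read as a test.

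KO was also compared with WT across all genes with and without the chosen livers. Over 24 livers edgeR called 0 of 13186 genes (0%) at an adjusted p under 0.05, with 1105 at an unadjusted p under 0.05 and 21 called by DESeq2, and the common coefficient of variation between livers of a group was 0.271. Without the 5 livers that coefficient was 0.16 and edgeR called 0 of 12788 genes, with 1611 at an unadjusted p under 0.05. With the ductular score as a covariate over 24 livers it was 0.192, with 0 called and 1524 at an unadjusted p under 0.05. For *Gpnmb*, the KO minus WT difference was -1.57 (SE 1.27) over 24 livers and -0.10 (SE 0.5) over 19, and for *Krt19* it was -0.70 (SE 0.84) and 0.00 (SE 0.35). The 5 livers were chosen on high levels of these genes. The changes without them, also in the coefficient of variation, are therefore a description only.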

How the data were processed

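Whole-liver RNA was sequenced from 27 mice, 1 library per mouse, and grouped by the labels. Per the submitters' processing notes, HISAT and Bowtie2 did the alignment, against GRCm38.p6. The tool that counted reads is not given in the sources used here. The deposited tables hold expected counts (estimated reads per gene, not normalized) and FPKM, in which the authors divided by gene length and library total. Counts were rounded, and a gene absent from a table was given 0 there. Of 17655 genes, 17533 matched RefSeq identifiers.

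The 5 livers were compared with 10 groupmates by edgeR 4.0.16 (R 4.3.3), quasi-likelihood test, group as covariate, filterByExpr with a minimum count of 10, and Benjamini-Hochberg adjustment. Scores are mean log2 CPM with a prior count of 2. DESeq2 1.42.0 and limma 3.58.1 on log2(FPKM + 1) were alternatives. The edgeR fits of chosen livers against groupmates and of the slope over 12 livers were tried on simulated data with 1 fixed spread for all genes. The other fits and tests were not. Members, lists and tests were chosen with earlier results of these data known. Genes were named as the 4 markers, the extremes and main members of each list, and the 12 highest and 12 lowest differences among genes with a mean log2 CPM of at least 2 that were beyond both groupmates in all groups; *Cyp2b9*, *Sult2a1*, Y-linked genes and the added sex-biased sets were chosen after their values were seen. Mouse numbers do not pair mice. *Xist* and *H19* were not analysed here, and some listed genes are not reported here.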

Additional observations from a re-analysis of the deposited data

How the results depend on the processing

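The count of genes called between chosen livers and groupmates was 3726 to 7342 under other scalings, filters and tools, within 1.5 times of the 5125 reported, and 3362 to 5845 with 1 library left out, lowest without mouse 17 of the KO WDA males. The median of endothelial genes turned from -0.18 to 0.18 with library totals alone. Over the 12 other livers, the count of genes called on the ductular score was 28 to 45 under other scalings, filters and tools and 1 to 43 with 1 library left out. It was 1 without mouse 19, 20 or 21 of the WT WDA males, 16 and 19 without mice 14 and 15 of the HepKO WDA females, and 18 without mouse 4 of the KO Res females. The relation of the ductular score with the scar macrophage score turned from 0.821 to -0.511 without the farthest 2 livers and lay between -0.584 and 0.901 with 1 liver left out, and that with the matrix score turned to -0.0379. Without the 5 chosen livers, KO minus WT turned to 0.0801 for the ductular and 0.156 for the scar macrophage score. For KO against WT over 24 livers, DESeq2 called 21 genes where edgeR called 0, and leaving out 1 library gave 0 to 1. The cause of these changes was not tested, except that fewer livers were fitted where some were left out. No paired analysis was possible because mouse numbers name different animals and are not shared across groups as pairs. *Krt19* and other duct genes rest on few reads, which limits their fold differences.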

Other observations

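The lists of hepatocyte injury, chemokine and lipid genes were not described above. Of 22 injury genes, 19 were higher in the chosen livers on average and 6 were above both groupmates in all 5 groups, with a median log2 difference of 0.88. *Ly6d*, which injured hepatocytes express, stood at 100.5 CPM in mouse 7 of the WT WDA females (22.8 and 17.8 in groupmates), and *Mdk*, a growth factor, differed by 2.16 (SE 0.37). The acute phase gene *Saa1* differed by -0.21 (SE 0.36), without a common direction. Of 18 chemokine and inflammation genes, 15 were higher, and *Cxcl14* (1.61, SE 0.2), *Ccl22* (1.57, SE 0.34) and *Ccl2* (0.86, SE 0.23), which draws monocytes, were above both groupmates in all 5 groups, while *Ccl24*, a chemokine of Kupffer cells, was below both in all 5 (-1.33, SE 0.22). All 7 fitted neutrophil genes were higher on average (median 0.87), none above both groupmates in all 5 groups. Targets of the liver X receptor had a median of -0.11, which turned to 0.24 with library totals alone, with *Apoe* (-0.54, SE 0.16) and *Apoc1* (-0.70, SE 0.15), both apolipoproteins, below both groupmates in all 5 groups.

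*Mup20*, a male-biased urinary protein, went against the other Mup genes in the chosen females. It was at 154 CPM in mouse 7 (68.3 and 45.1 in groupmates) and 486 CPM in mouse 13 (58.9 and 78.6). It was chosen after its values were seen.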
